A study of Arabidopsis thaliana with 12 samples.

Results

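Z-ISO (AT1G10830), the zeta-carotene isomerase of the plastid, and FATB (AT1G08510), an acyl-ACP thioesterase of the plastid, were each measured on 1 feature of an expression array. The platform annotation assigns each of these 2 features to 1 gene. They belong to 692 features with 1 annotated gene among 3439 features in all. The 2 genes were picked with measured values of these samples known. Which values were used is not stated, so their difference between kn09 and wild type was treated as used and is given as a description. Where it is said whether either gene passed a threshold, nothing is read from it.

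Total RNA came from Arabidopsis thaliana roots of ecotype Wassilevskija. The kn09 group held 6 samples of a mutant whose labels describe a block in mitochondrial proline breakdown and a strong sensitivity to proline, and the WT group held 6 wild-type samples. Both groups had received MS with 100 mM Glc (glucose) for 48 h, so no sample shows either gene without glucose. The labels give neither the gene disrupted in kn09 nor its allele, and they do not say whether samples 1 to 6 of a genotype are separate cultures or repeat readings, so spreads and p-values may reflect technical variation.

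Carotenoids are made in plastids from geranylgeranyl diphosphate, which is joined to phytoene and then desaturated in steps. Z-ISO acts between the desaturases, turning a cis double bond of zeta-carotene into the trans form, a step that light can partly replace in green tissue and that an enzyme carries out in roots and in the dark. The pathway yields photoprotective pigments and the precursors of abscisic acid and strigolactones. FATB ends fatty acid synthesis in the plastid by cutting saturated acyl chains, chiefly palmitate, from the acyl carrier protein (ACP). The freed fatty acids leave the plastid for membrane lipids, waxes and cutin. Its relatives of the FATA type prefer the monounsaturated oleoyl chain.

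Each value is a deposited intensity relative to its own sample, in which the brightest feature stands at 100. On this relative scale, every kn09 sample had a lower median than any WT sample. Median intensity was 0.109 ± 0.00864 in kn09, against 0.194 ± 0.0413 in WT (SD, n = 6 each, exact 2-sided permutation p = 0.00216). Within WT the median was 0.139 and 0.144 in samples 5 and 6, and 0.211 to 0.227 in samples 1 to 4. In kn09, 398 to 522 features per sample were listed at exactly 0, against 153 to 235 in WT (exact 2-sided permutation p = 0.00216). Over means of consecutively numbered samples, 3 per genotype, each exact permutation p was 0.1, the smallest that design allows. These differences touch both genes, because a feature listed at 0 has only an upper bound, and because samples with a lower median are raised by scaling. For that reason deposited intensities stand first and normalized values after them. The tissue could not be checked by its own genes, since 0 of 12 root marker loci lay on any feature, and 0 of 3 loci of proline breakdown did. Of 12 loci listed as green tissue markers, PRK and SBPASE had features of their own and RCA lay on 2 features shared with AT1G73110, and these 4 features were above 0 in all samples.

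Z-ISO was lower in kn09 roots. Its deposited intensity was exactly 0 in kn09 samples 1, 2, 4, 5 and 6 and 0.0241 in kn09 sample 3. In WT samples 1 to 6 it was 0.116, 0.106, 0.281, 0.238, 0.150 and 0.235. The groups did not overlap, as in 15.4% of all features with the lower values in kn09, and the lowest WT sample was 4.42-fold above the highest kn09 sample. In bulk RNA, fewer cells that express a gene and less of its RNA per cell cannot be told apart. Because 5 kn09 values are listed at 0, no fold change is given for the deposited means.

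The WT samples of Z-ISO also varied among themselves. The WT mean was 0.188 ± 0.0728 (SD, n = 6), a coefficient of variation of 38.7%, and the highest WT sample was 2.64-fold above the lowest. WT samples 1 and 2 were the lowest and WT sample 3 the highest. FATB varied less over the same 6 WT samples, with a coefficient of variation of 14.8%.

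FATB was nearly level between the genotypes on the deposited scale. It stood at 0.221, 0.296, 0.307, 0.318, 0.303 and 0.225 in kn09 samples 1 to 6. In WT samples 1 to 6 it stood at 0.263, 0.304, 0.243, 0.254, 0.212 and 0.203. The groups overlapped, with kn09 samples 1, 2, 5 and 6 inside the WT range and kn09 samples 3 and 4 above it. The means were 0.278 ± 0.0432 in kn09 and 0.246 ± 0.0365 in WT (SD, n = 6 each), a ratio of 1.13. Where most features stood lower in kn09 on this relative scale, FATB did not.

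**Figure D1:**
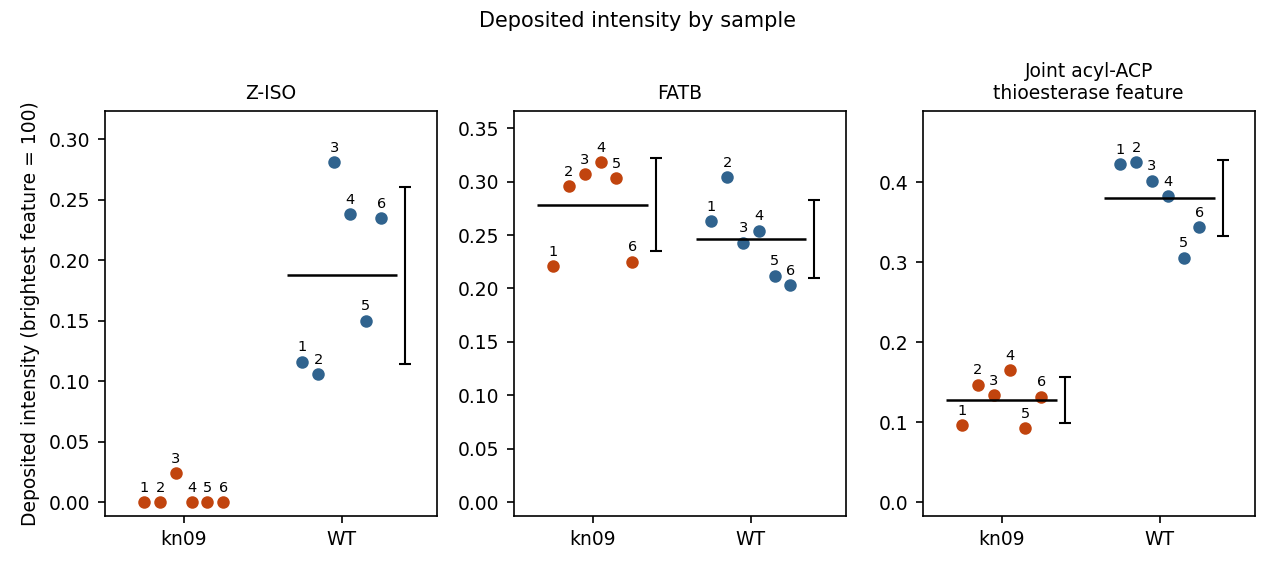
Deposited intensity (vertical axis, linear, brightest feature of a sample at 100) of Z-ISO, of FATB and of the feature assigned jointly to FATB and its FATA relatives, in kn09 (left) and WT (right). Points are samples with their numbers, horizontal lines are group means and bars are SD (n = 6), left out for Z-ISO in kn09, where 5 of 6 values are 0. Z-ISO in kn09 lies below all WT samples, FATB overlaps, and the joint feature in kn09 (0.0922 to 0.165) lies below WT (0.306 to 0.425).

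The place of each feature within its own sample does not depend on a scale factor. Z-ISO ranked at a median percentile of 7.35 among the features of a kn09 sample and of 52.1 among those of a WT sample. The low kn09 percentile is that of all features tied at 0, except in kn09 sample 3, where Z-ISO stood at percentile 19.8. In WT samples 1 and 2 Z-ISO stood at percentiles 30.0 and 25.6, and in WT samples 3 to 6 between 52.0 and 62.5. FATB ranked between percentiles 67.8 and 74.9 in kn09 and between 52.1 and 60.9 in WT. The FATB percentiles of the genotypes did not overlap, unlike its deposited intensities. On the quantile-normalized scale, which follows these ranks, 4.83% of all features were higher in kn09 without overlap.

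**Figure D2:**
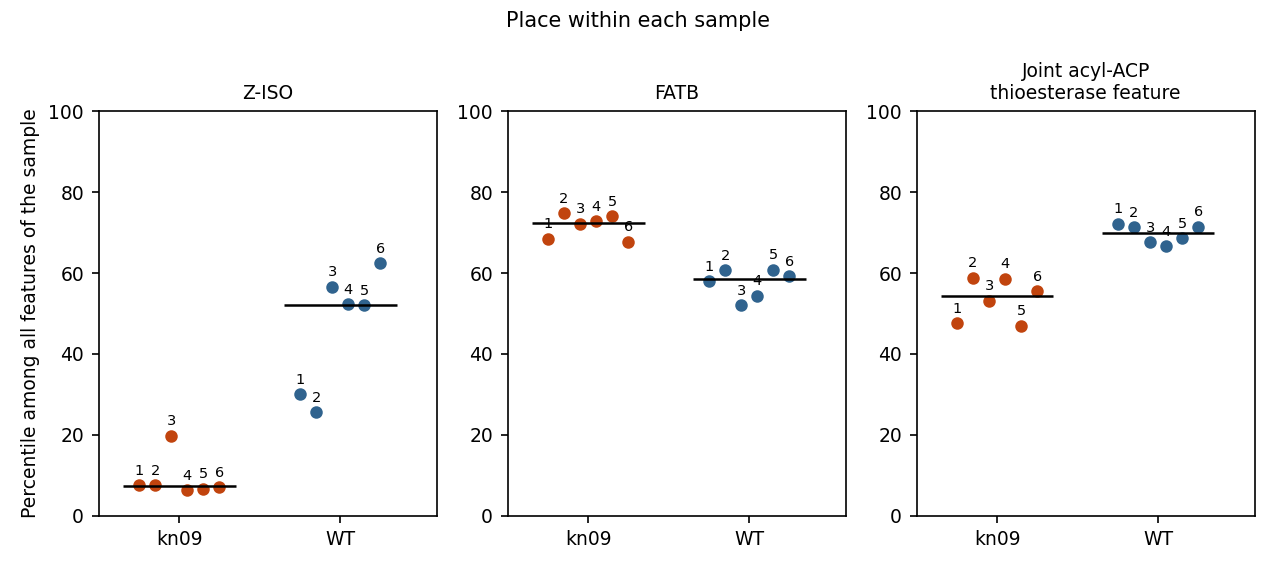
Percentile of each feature among all 3439 features of the same sample (vertical axis, 0 to 100), in kn09 (left) and WT (right), for the same features. Points are samples with their numbers and lines are medians over 6 samples. FATB lies higher in kn09 (median 72.5) than in WT (58.6), while the joint thioesterase feature lies lower in kn09 (54.4) than in WT (70.0).

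In each kn09 sample, 1192 to 1280 features lay above 0 and below 0.106, the lowest WT value of Z-ISO. WT samples 5 and 6 had 1224 and 1209 such features and WT samples 1 to 4 had 682 to 788. The Z-ISO feature itself read 0.0241, within this range, in kn09 sample 3. Whether it could read such intensities in the other kn09 samples was not tested. At least 5 kn09 zeros with no WT zero, the pattern of Z-ISO, occurred in 25 of 3439 features (0.727%), and in 6 of 692 features with 1 gene (0.867%). No feature had at least 5 WT zeros and no kn09 zero.

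After quantile normalization, which gives every sample the same distribution, zeros and the lowest values were set to a floor of 0.0062, or -7.33 on the log2 scale. Normalized Z-ISO averaged -6.87 in kn09, with 5 of 6 samples at the floor, and -2.92 ± 0.79 (SD, n = 6) in WT. The fitted log2 difference, kn09 minus WT, was -3.95 ± 0.53 (SE), and its size rests on the floor. Normalized FATB averaged -1.53 ± 0.19 in kn09 and -2.34 ± 0.18 in WT (SD, n = 6 each), a log2 difference of 0.82 ± 0.16 (SE), or 1.76-fold. All 6 kn09 samples were above all 6 WT samples on that scale, as in 4.83% of all features.

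Both genes passed limma's adjusted p of 0.05, as did 12.8% of all features, and nothing is read from this count because the contrast was treated as used in choosing them. In 6.48% of all features the difference was a higher kn09 level, as for FATB, and in 6.31% a lower one, as for Z-ISO. The direction of FATB is one relative to the other features. Over all features the log2 difference had a median of -0.06 after quantile normalization and of -0.85 on the intensities as deposited. On the deposited scale FATB had 0.17 ± 0.18 (SE) and was not called, Z-ISO was called, and 36.6% of all features were. Less that median, the FATB difference was 0.88 after normalization and 1.03 as deposited. The Z-ISO difference less the median was -3.89 and -4.26 in the same order.

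In 2 further fits, samples of a genotype with consecutive numbers (1 and 2, 3 and 4, 5 and 6) were not taken as independent. With these pairs as a random block, whose estimated correlation was 0.476, limma called 2.38% of features, Z-ISO among them and FATB not. With means of pairs, 3 per genotype, 0.465% were called and neither gene was. Nothing is read from which gene passed, because the contrast was treated as used in choosing them. In these 2 fits the SE was 0.71 and 0.6 for Z-ISO and 0.2 and 0.28 for FATB. With all samples taken as independent it was 0.53 and 0.16. With zeros as missing, which leaves Z-ISO 1 kn09 value, its difference was -1.64 ± 0.77 (SE) and it was not called, while 16.2% of the features were. Leaving out any 1 sample kept the Z-ISO difference between -4.42 and -3.74 and the FATB difference between 0.77 and 0.87. The value of -4.42 was that without kn09 sample 3.

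**Figure D3:**
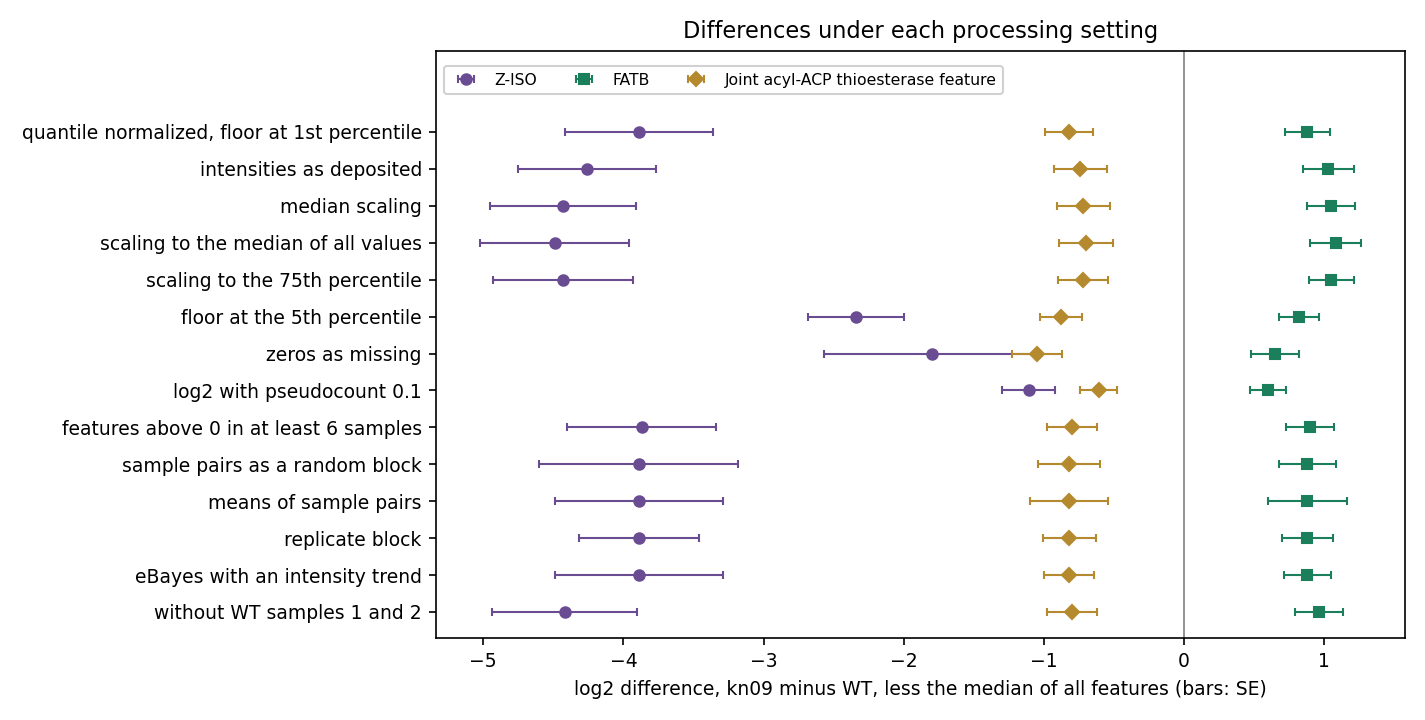
Log2 difference, kn09 minus WT, less the median log2 difference of all features (horizontal axis), for Z-ISO, FATB and the joint thioesterase feature under each processing setting (vertical axis). Points are fitted values and bars are SE. FATB stays between 0.60 and 1.08, the joint feature between -1.05 and -0.61, and Z-ISO ranges from -4.49 to -1.11.

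A second feature carries the FATB locus and was not used to choose the genes. It was singled out after its values were seen, so its p-values are no independent check. The annotation assigns it jointly to FATB and to both FATA loci (AT4G13050 and AT3G25110), so its signal cannot be given to any of the 3. It was at 0.0959, 0.147, 0.134, 0.165, 0.0922 and 0.132 in kn09 samples 1 to 6. In WT samples 1 to 6 it was at 0.423, 0.425, 0.402, 0.383, 0.306 and 0.344. Every kn09 sample was below every WT sample, as in 15.4% of all features on the deposited scale. The means of 0.128 ± 0.0286 in kn09 and 0.381 ± 0.0471 in WT (SD, n = 6 each) gave a ratio of 0.335.

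The joint feature fell after normalization too, by 0.88 ± 0.17 (SE) on the log2 scale, and passed over all features (limma adjusted p = 0.00919). Below the WT median lay 6 of 6 kn09 samples. It was called under all scalings tried, but not with sample pairs as a random block (limma adjusted p = 0.0661) or with means of pairs (limma adjusted p = 0.25). The ratio of the FATB feature to the joint feature, from which any scale factor cancels, was 3.41-fold higher in kn09 than in WT, or 1.77 on the log2 scale. Set to a WT mean of 0, the log2 ratio ran from 1.4 to 2.35 over the kn09 samples and from -0.13 to 0.15 over the WT samples. Less the median of all features, the differences of these 2 features had opposite signs, 0.88 for FATB and -0.82 for the joint feature. Which of them follows FATB transcripts was not tested, and probe sequences were not used here.

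Another feature, assigned to both FATA loci and not to FATB, had 0.102 ± 0.0442 in kn09 and 0.146 ± 0.0491 in WT (SD, n = 6 each). Its log2 difference after normalization was 0.32 ± 0.33 (SE) with a limma adjusted p of 0.541, so no difference beyond the spread was found. On the intensities as deposited its log2 difference was -0.57. Whether it differs from the joint feature that also carries FATB was not tested.

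Few other steps of the 2 pathways could be read. Of 91 loci listed for carotenoid synthesis, plastid isoprenoid precursors, plastid fatty acid synthesis and glycerolipid assembly, 3 lay on a feature of their own besides Z-ISO and FATB. With features picked by gene name there were 5 such features, of which 0 passed limma's adjusted p of 0.05 and 1 had an unadjusted p under 0.05, against 12.8% and 30.2% of all features. Their median log2 difference was 0.66, against -0.06 for all features, with 4 above 0 and 1 below. That median is the value of PIFI, which was -0.65 on the intensities as deposited. PIFI and CHLM were picked by name only and are not steps of the 2 pathways, so the median does not describe those pathways. Z-ISO was the 1 carotenoid enzyme with a feature of its own, so the desaturases before and after it were not analysed here.

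Among pigment and isoprenoid genes, AT1G74470, the geranylgeranyl reductase that supplies the phytyl chain of chlorophyll and tocopherol, was bright, with 3.09 ± 0.441 in kn09 and 2.61 ± 0.654 in WT (SD, n = 6 each). Its log2 difference was 0.37 ± 0.23 (SE), with a limma adjusted p of 0.297, and it was called with median scaling at 0.82 (limma adjusted p = 0.0132), which called 7.65% of all features higher. It was also called with scaling to the median of all values, at 1.08 (limma adjusted p = 0.00324). The same held with scaling to the 75th percentile, at 0.83 (limma adjusted p = 0.0196). Those 2 scalings called 18.9% and 19.0% of all features in either direction. CHLM, the magnesium-protoporphyrin methyltransferase of chlorophyll synthesis, had 0 in kn09 sample 1, up to 0.111 in the other kn09 samples, and 0.211 ± 0.0685 (SD, n = 6) in WT. Its log2 difference was -1.31 ± 0.66 (SE), with a limma adjusted p of 0.206. On the intensities as deposited CHLM was called lower, at -2.26 (limma adjusted p = 0.0298), as were 33.7% of all features. PIFI, named for a chlorophyll fluorescence trait and no pigment enzyme, had a log2 difference of 0.66 ± 0.46 (SE), which turned to -0.65 as deposited.

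Among fatty acid genes, AT1G24360, the ketoacyl-ACP reductase of the elongation cycle, had 0.162 ± 0.0794 in kn09 and 0.182 ± 0.0836 in WT (SD, n = 6 each). Its log2 difference of 0.69 ± 0.45 (SE) had a limma adjusted p of 0.319 and was -0.16 as deposited. AT5G16230, of the acyl-ACP desaturase family that makes the double bond of oleoyl-ACP, was listed at 0 in 3 kn09 and 5 WT samples and reached 0.0593 in kn09 and 0.0217 in WT. It was not called (limma adjusted p = 0.154). A further 8 features carried a listed locus together with other genes, of which the joint FATB feature was the 1 called, close to the 12.8% called over all features. Their median log2 difference was 0.00, with 4 above 0 and 4 below.

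**Figure D4:**
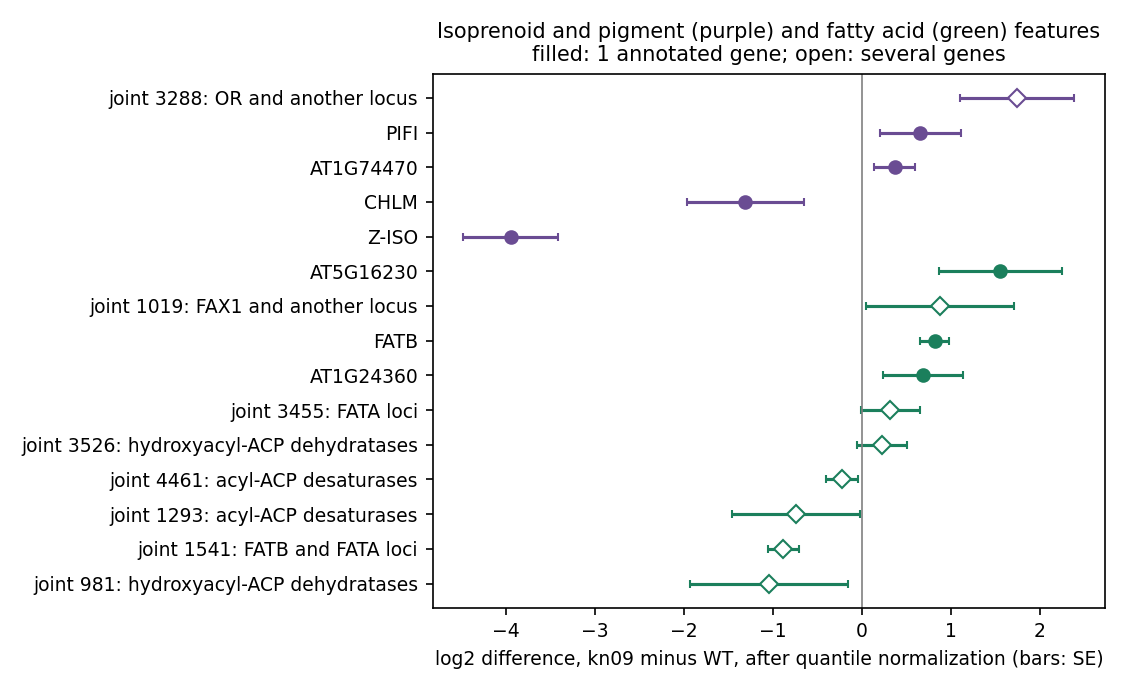
Log2 difference, kn09 minus WT, after quantile normalization (horizontal axis) with SE bars, for isoprenoid and pigment features (purple) and fatty acid features (green). Filled circles are features with 1 annotated gene and open diamonds are features shared by several genes, with the number of the feature on the array. Z-ISO lies at -3.95, FATB at 0.82 and the joint feature of the FATB and FATA loci at -0.88.

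Features with the same annotation were set side by side in 2 cases. Those assigned to both hydroxyacyl-ACP dehydratase loci (AT5G10160 and AT2G22230), enzymes of the same elongation cycle, had log2 differences of -1.04 ± 0.89 (SE) and 0.23 ± 0.28 (SE). Their WT means were 0.0551 and 0.290, and neither was called (limma adjusted p = 0.453 and 0.608). The features shared by RCA (AT2G39730), the Rubisco activase, and AT1G73110 had log2 differences of -0.27 ± 0.24 (SE) and -0.56 ± 0.68 (SE), neither called (limma adjusted p = 0.467 and 0.605). Both genes described here rest on 1 feature each, so their values hold only as far as the annotation does.

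Of the Calvin cycle enzymes, plastid enzymes on single-gene features like Z-ISO and FATB, PRK (phosphoribulokinase) had a difference close to that of FATB after quantile normalization. PRK had a log2 difference of 0.78 ± 0.19 (SE, limma adjusted p = 0.0271) and 1.86 ± 0.101 in kn09 against 1.32 ± 0.357 in WT (SD, n = 6 each). The PRK call was lost without kn09 sample 1 or 2 or WT sample 5 or 6 (limma adjusted p = 0.0515, 0.0533, 0.0528 and 0.0514), with the replicate number as a block (0.0775), with pairs as a random block (0.0795) and with means of pairs (0.315). As deposited, PRK was called higher at 0.53 (limma adjusted p = 0.0481), where FATB had 0.17. In that setting 36.6% of all features were called in either direction. With median scaling PRK had 1.07 and FATB 0.72. SBPASE (sedoheptulose-bisphosphatase) had a log2 difference of -0.03 ± 0.20 (SE, limma adjusted p = 0.925) and was called lower as deposited, at -0.84 (limma adjusted p = 0.0116), as were 33.7% of all features around a median of -0.85. The ratio of FATB to PRK changed by -0.36 on the log2 scale and that of FATB to SBPASE by 1.02, and whether FATB differs from either was not tested.

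The 4 single-gene features closest to Z-ISO in normalized log2 intensity over the 12 samples were AT4G16410, AT4G00870, AT4G14050 and AT1G72640. Their Pearson r with Z-ISO was 0.897, 0.896, 0.890 and 0.889. All 4 were above 0 in every sample, and their log2 differences were -0.88, -1.0, -1.56 and -0.72. Within kn09, where 5 Z-ISO values are tied at the floor, r was 0.372, 0.579, 0.416 and 0.573, and within WT it was 0.889, 0.889, 0.927 and 0.603. These are descriptions over samples that share their scaling and the difference between genotypes.

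The 4 single-gene features closest to FATB were AT4G13680, AT1G18060, AT4G00170 and AT1G74070, with r of 0.931, 0.914, 0.912 and 0.912 over the 12 samples. AT1G18060 also followed FATB within each genotype, with r of 0.903 in kn09 and 0.890 in WT, whereas AT4G13680 had 0.0694 in kn09 and 0.555 in WT. For AT4G00170 r was 0.0295 in kn09 and 0.246 in WT, and for AT1G74070 it was 0.0191 in kn09 and 0.936 in WT. The 4 features were picked by r over these same 12 samples, so the values within each genotype are descriptions too. AT1G18060 had a log2 difference of 1.49 and deposited means of 0.223 ± 0.0404 in kn09 and 0.146 ± 0.0733 in WT (SD, n = 6 each). On the array's feature numbers, the 2 features before Z-ISO had log2 differences of -1.32 and -1.04 and the 2 after it 0.05 and 0.13. For FATB these were 0.24 and 0.35 before it and -0.05 and -1.91 after it.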

How the data were processed

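Total RNA of 6 kn09 and 6 WT root samples was measured on an array. The authors deposited a linear intensity for each feature in each sample, and from the values the brightest feature of each sample stands at 100. Scanning, background correction and scaling are not given in the sources used here. The number of arrays limits the precision.

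Intensities were quantile normalized in limma 3.58.1 (R 4.3.3). A floor was set at the 1st percentile of positive normalized values and given to zeros and anything lower, and log2 values were fitted with lmFit and eBayes, genotype as the only term, with Benjamini-Hochberg adjustment over 3439 features. The code was tested on simulated data. Gene names came from the platform annotation, brought up to date through the Entrez identifiers of the TAIR10.1 table, which matched 690 of 692 single-gene features. A further 870 features carry several genes and 1877 are unnamed here.

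Z-ISO, FATB and the gene lists were chosen with earlier results of these data known. Named besides them were the listed single-gene features, PRK, SBPASE and the 4 features closest to each gene. The joint thioesterase features, the features with the same annotation and the neighbouring features were singled out after their values were seen. Alternatives covered scaling, floor, zeros, pseudocount, low-value filter, sample pairs, replicate block, trend and left-out samples. Scaling to the median of all values and to the 75th percentile were added after seeing the data.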

Additional observations from a re-analysis of the deposited data

Results flagged for a closer look

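Of 22 sets of 6 normalized log2 values checked (Z-ISO, FATB, the 5 other single-gene pathway features, PRK, SBPASE and the joint features of the FATB and FATA loci and of the FATA loci, in each genotype), 4 had 1 value set apart from the remaining 5, where about 1 set in 20 would by chance. Z-ISO stood at -4.56 in kn09 sample 3, while the remaining kn09 samples lay at -7.33, the floor. AT5G16230 stood at -7.03 in WT sample 2, with the other WT samples at the same floor. Where 5 values share the floor, a value of any size above it is set apart. CHLM was at the floor of -7.33 in kn09 sample 1, a deposited 0, with the others between -3.62 and -2.83. PIFI stood at -5.87 in WT sample 4, with the others between -4.22 and -3.51.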

How the results depend on the processing

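The Z-ISO difference of -3.95 kept its sign in all settings and was -5.11 as deposited, -2.34 with the floor at the 5th percentile, -1.64 with zeros as missing and -1.12 with a pseudocount of 0.1. The FATB difference of 0.82 kept its sign and was 0.17 as deposited and 0.59 with the pseudocount. Leaving out 1 sample gave -4.42 to -3.74 for Z-ISO and 0.77 to 0.87 for FATB. The 440 called features (223 higher, 217 lower) became 1257 as deposited (99 higher, 1158 lower), 82 with sample pairs as a random block (55 higher), 16 with means of pairs (15 higher), 827 without WT samples 1 and 2, 548 with zeros as missing (333 higher, 215 lower) and 650 with scaling to the median of all values (451 higher, 199 lower). Leaving out 1 sample gave 192 to 507, with 240, 209, 274, 246, 250 and 279 without kn09 samples 1 to 6 and 192, 230, 254 and 272 without WT samples 3 to 6, in fits with fewer samples. With the replicate number as a block, 211 features (6.14%) were called (95 higher), the joint feature among them. Samples of the same number correlated in their deviations at 0.0683 to 0.0995, under 0.1, and 12 of 12 correlated best with their own number. The fit that called 440 features had no term for the number, so its SE and calls take no account of such a link. What links samples of the same number was not tested.

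Of the 5 other pathway features, 0 were called, and 1 as deposited, 1 with median scaling, 1 with scaling to the median of all values, 1 with scaling to the 75th percentile and 1 with zeros as missing (AT5G16230, from a lone WT value assumed to vary like the rest). Without any 1 sample the count was 0. Signs of uncalled features turned for the feature of the FATA loci (-0.57 as deposited, -0.02 with median scaling, -0.01 with the 75th percentile), PIFI (-0.65, -0.10 and -0.09 in the same settings), AT1G24360 (-0.16 as deposited) and SBPASE (-0.11 to 0.05 leaving out 1 sample). The difference in features at 0 per sample, 273.2, was 262.9 to 287.7 leaving out 1 sample. The causes were not tested. Signals near the floor limit Z-ISO in kn09 and AT5G16230.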
